A study of Homo sapiens with 8 samples.

Results

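Of the genes that carry out ubiquitin transfer, 59 with a probe on the array were taken up here, and 52 of them could be measured. They are the E2 conjugating enzymes named UBE2, the cullins named CUL, the RING subunits RBX1 and RNF7, the adaptors and receptors SKP1, SKP2, FBXW7 and DDB1, the modifier NEDD8, and the E1 activating enzymes UBA1, UBA2, UBA3 and UBA6. To count as measured, a gene needed a probe that the scanner software flagged as well above background on each of the 8 arrays, and the brightest of these was used. By this rule 10959 of 22439 genes on the array were measured, and the 52 members comprised 35 E2 genes, 7 cullins and 10 other genes.

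A431 is a line of human cutaneous squamous cell carcinoma. Cells were transfected for 24 h with 10 nM of miR-634 or of miR-NC, a control RNA, and RNA was hybridized to 1-color Agilent arrays either after immunoprecipitation of Argonaute 2 (AGO2-RIP) or as input. The 4 groups, input and RIP from cells of either kind, held 2 arrays each. The methods describe the input as total RNA, whereas the sample labels of these arrays name normal rabbit IgG. Nothing says that the duplicates came from separate transfections, so p-values measure only the spread between these arrays, which may be technical. As whole cultures were measured, a change of RNA per cell and a change in the mix of cells cannot be told apart. All 8 markers of squamous epithelium searched, such as KRT5, KRT14 and TP63, were above background on all 4 input arrays. Of markers of other cell types, LUM (1 of 6 for fibroblasts), CD14 (1 of 4 for leukocytes), and CDH5 and VWF (2 of 4 for endothelial cells) were also above background on all 4, and 3, 2 and 2 genes of these lists, respectively, were above background on none of them. Their part in the results was not tested.

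Ubiquitin is activated by an E1 enzyme, passed to an E2 enzyme, and placed on a substrate with the help of an E3 ligase. Cullins are the scaffolds of the largest class of such ligases: at its carboxy-terminal end each cullin holds a RING subunit that recruits the charged E2, and at its amino-terminal end adaptors and receptors that hold the substrate. A cullin is switched on when NEDD8, a ubiquitin-like protein with an E1 and E2 enzymes of its own, is joined to it. SUMO and ISG15 are further ubiquitin-like proteins with separate enzymes. These ligases limit the life of cell cycle and signaling proteins in squamous cells as elsewhere. The miRNA that was introduced is shown with its seed, bases 2 to 8, in capitals, because pairing of a transcript with these bases is the main way by which AGO2 carrying a miRNA finds its targets. The sequence is that of RefSeq (GRCh38.p14, chr17:66787132-66787153, plus strand).
hsa-miR-634: aACCAGCAccccaacuuuggac
Transcripts of the members were not searched for the match to this seed, TGCTGGT.

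Levels are given as log2 of the background-subtracted intensity relative to the 75th percentile of that array, taken over the probes flagged on all arrays. Enrichment (RIP/input) is the log2 level in RIP less the log2 level in input within a kind of cell, and its change is that of miR-634 cells minus that of miR-NC cells. A value of 0 therefore means an unchanged place relative to the percentile of the arrays, not an unchanged amount of RNA. The share of spots well above background was 45.6% to 45.8% for input, 33.6% and 34.5% for RIP of miR-NC cells, and 40.0% for RIP of miR-634 cells, and the log2 percentile was 11.4 to 11.5, 9.39 to 9.48, and 10.4, respectively. The part of this difference in brightness in the results was not tested. With arrays scaled to their 8 spike-in controls in place of the percentile, the median change of enrichment of all measured genes moved from -0.22 to 0.89. Falls of enrichment reported here are thus falls relative to the percentile of the arrays.

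In cells with miR-634, enrichment rose for 13 of the 52 members (25%, against 28.1% of all measured genes) and fell for 20 (38.5%, against 43.2%), by limma with an adjusted p under 0.05. Both shares were near the background, and so was the median change, -0.17 for the members and -0.22 for all genes, with 28 members above the median gene. The members were spread from -1.84 for CUL1 to 2.37 for UBE2V2 (SD 0.85, against 0.94 over all genes). A change over 2-fold was called upward for 7 members (13.5%, against 13.2%) and downward for 6 (11.5%, against 8.31%). All 13 rises and 20 falls had the same sign in the arrays of either number. This is no separate support, because they were called from these same arrays and the numbers are not shown to pair them. Spike-in scaling moves the changes of enrichment of all genes up by the same amount, so all 13 rises were larger by construction. Of the 20 falls, 3 stayed below 0 under that scaling (CUL1, UBE2L3 and UBE2V1), and the other 17 turned to values above 0. All 20 falls lay below the median gene, which itself stood at -0.22. Centered on that gene, 16 members were called lower, against 30.6% of all genes.

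**Figure D1:**
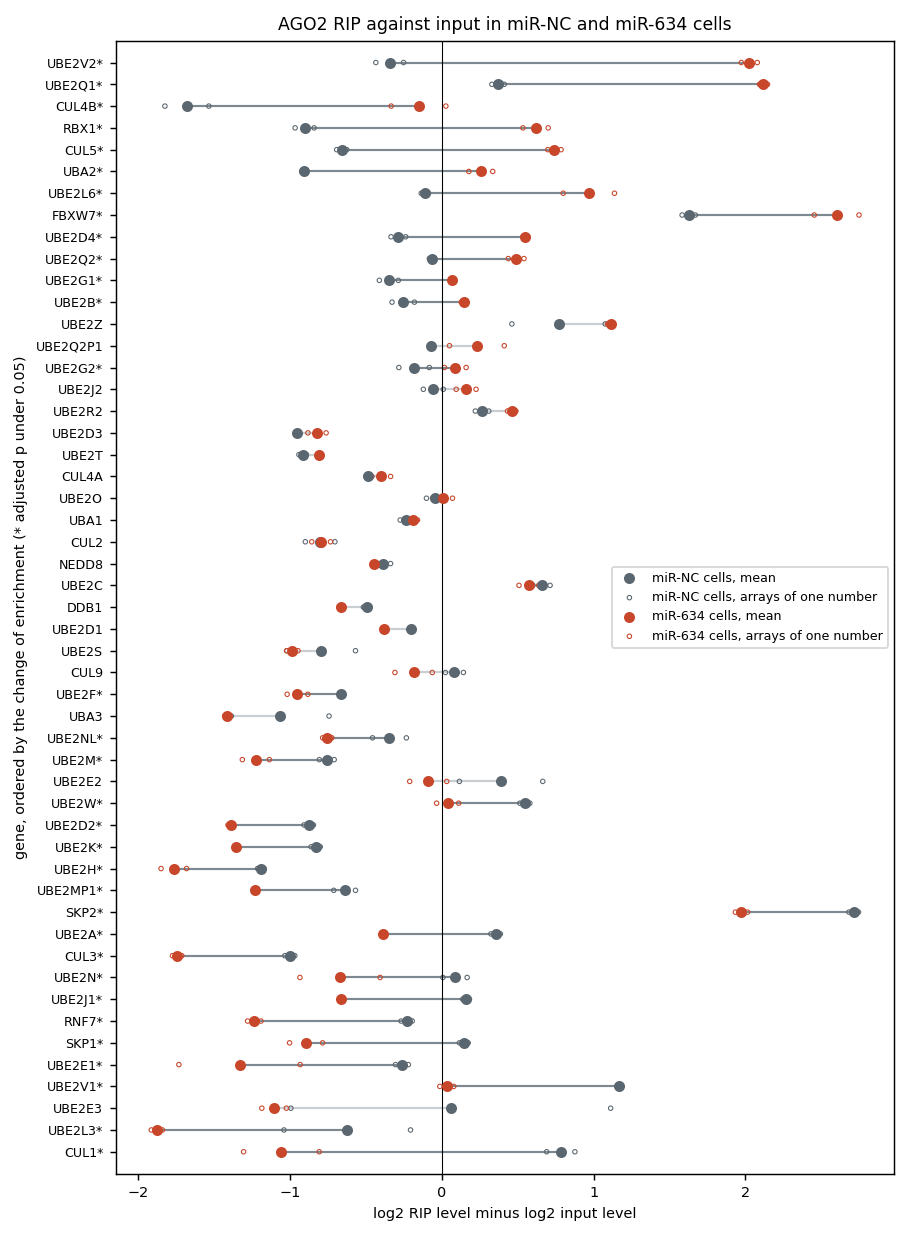
Log2 enrichment, RIP less input (horizontal axis) of 51 of the 52 measured members in miR-NC cells (gray) and miR-634 cells (red), in the order of the change. Filled points are means of 2 arrays, open points the values of arrays with the same number, and a star marks an adjusted p under 0.05 for the change. UBE2V2 moves from -0.34 to 2.03 and CUL1 from 0.78 to -1.06; with spike-in scaling CUL1 remains a fall, whereas 17 of the 20 falls of the 52 members turn to values above 0.

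Among E2 enzymes, the largest rise was that of UBE2V2, which has no catalytic cysteine of its own and works as a partner of UBE2N in building signaling chains of ubiquitin. Its level was -2.32 and -2.24 in miR-NC input, -2.57 and -2.68 in miR-NC AGO2-RIP, -3.04 and -3.16 in miR-634 input and -1.07 and -1.08 in miR-634 AGO2-RIP. The miR-634 RIP arrays were the highest and the miR-634 input arrays the lowest, and no group overlapped another. Enrichment went from -0.34 to 2.03, a change of 2.37 (SE 0.09, adjusted p = 2.87e-06), or 5.16-fold. Input fell by 0.82 on the log2 scale (SE 0.06, adjusted p = 0.0008) while the RIP level rose by 1.55 (SE 0.06, adjusted p = 2.14e-06).

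UBE2V1, the close relative of UBE2V2 that partners the same enzyme, went the other way. Its level was 1.15 and 1.16 in miR-NC input, 2.30 and 2.35 in miR-NC AGO2-RIP, 1.44 and 1.40 in miR-634 input and 1.43 and 1.48 in miR-634 AGO2-RIP. In miR-NC cells the RIP arrays stood well above the inputs, whereas in miR-634 cells RIP and input were nearly level. Enrichment of UBE2V1 thus went from 1.17 to 0.03, a change of -1.14 (SE 0.07, adjusted p = 1.54e-05) that shrank to -0.03 and lost its call under spike-in scaling. It was the only member whose input rose, by 0.26 (SE 0.05, adjusted p = 0.0104). A dimmer probe of UBE2V1 gave a change of enrichment of -1.33. UBE2N itself, the catalytic partner of both, had levels of -3.56 and -3.51 in miR-NC input, -3.55 and -3.34 in miR-NC AGO2-RIP, -3.36 and -3.66 in miR-634 input and -4.30 and -4.06 in miR-634 AGO2-RIP. The miR-634 RIP arrays were the lowest, and the other groups lay close together. The change of enrichment of UBE2N was -0.76 (SE 0.18, adjusted p = 0.00916), and 0.35 under spike-in scaling. UBE2NL, a sequence so like UBE2N that a probe may bind both transcripts, changed by -0.41 (SE 0.09, adjusted p = 0.00555), which was no longer called when the 75th percentile was taken over all probes (-0.29).

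UBE2Q1, an E2 with a long amino-terminal extension, showed the next largest rise. Its level was -2.61 and -2.60 in miR-NC input, -2.28 and -2.19 in miR-NC AGO2-RIP, -3.58 and -3.60 in miR-634 input and -1.43 and -1.51 in miR-634 AGO2-RIP. Inputs were lower and RIP arrays higher in miR-634 cells, with no overlap of groups. Enrichment was already above 0 in miR-NC cells (0.37) and reached 2.12, a change of 1.75 (SE 0.07, adjusted p = 4.6e-06). The input change of UBE2Q1 was -0.99 (SE 0.05, adjusted p = 0.000282). Its relative UBE2Q2 rose by less, 0.56 (SE 0.06, adjusted p = 0.000331), with an input change of -0.34 (SE 0.05, adjusted p = 0.00442), and the related sequence UBE2Q2P1, which may share signal with UBE2Q2, was at 0.30 (SE 0.19) and not called.

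**Figure D2:**
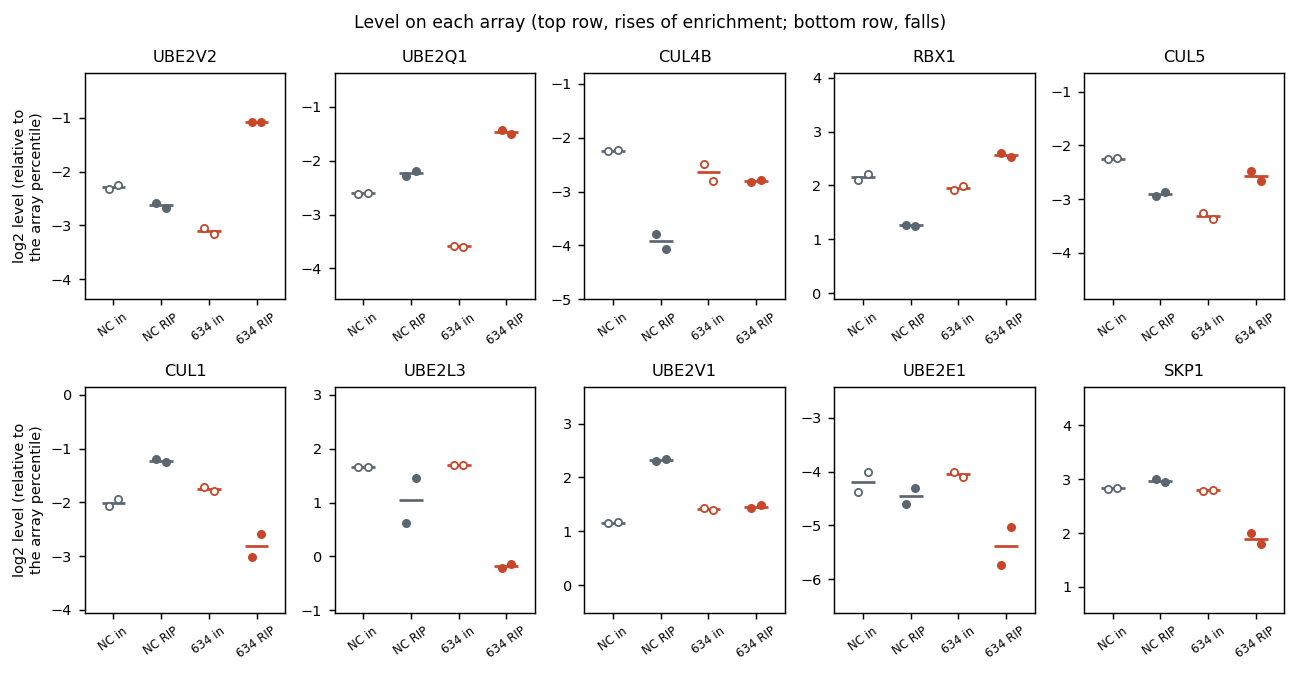
Log2 level relative to the 75th percentile of each array (vertical axis, the same span of 4.2 in each panel) for the members with the 5 largest called rises of enrichment (top row) and the 5 largest called falls (bottom row). Open points are input arrays and filled points RIP arrays, in gray for miR-NC and red for miR-634, with a line at the mean of 2 arrays. In the top row the red filled points of UBE2V2, UBE2Q1 and RBX1 lie above all others, and in the bottom row the red filled points of CUL1, UBE2L3, UBE2E1 and SKP1 lie below all others; with spike-in scaling only the falls of CUL1, UBE2L3 and UBE2V1 stay below 0.

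The UBE2D enzymes, which serve many RING ligases, did not move as a block. UBE2D4 rose by 0.84 (SE 0.09, adjusted p = 0.000238), and its other probe gave 1.32. UBE2D2 fell (-0.51, SE 0.06, adjusted p = 0.000411), with 0.59 under spike-in scaling. UBE2D1 was at -0.18 (SE 0.08) and UBE2D3 at 0.13 (SE 0.08), and neither was called, though a dimmer probe of UBE2D3 stood at 0.59. Levels of UBE2D4 were -1.94 and -1.84 in miR-NC input, -2.18 and -2.17 in miR-NC AGO2-RIP, -2.34 and -2.26 in miR-634 input and -1.81 and -1.69 in miR-634 AGO2-RIP. Its RIP arrays lay below the inputs in miR-NC cells and above them in miR-634 cells.

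UBE2A and UBE2B, both homologs of yeast RAD6 that act in DNA damage tolerance and histone ubiquitination, also parted. The level of UBE2A was 0.78 and 0.79 in miR-NC input, 1.16 and 1.12 in miR-NC AGO2-RIP, 0.74 and 0.68 in miR-634 input and 0.35 and 0.29 in miR-634 AGO2-RIP. The miR-NC RIP arrays were the highest and the miR-634 RIP arrays the lowest. Enrichment of UBE2A turned from 0.36 to -0.39, a change of -0.74 (SE 0.07, adjusted p = 0.000133), with -1.33 by its other probe and 0.36 under spike-in scaling. Enrichment of UBE2B turned from -0.25 to 0.15, a change of 0.40 (SE 0.08, adjusted p = 0.00336) that was accompanied by an input change of -0.27 (SE 0.05, adjusted p = 0.0156). The RIP change of UBE2B, 0.13 (SE 0.05, adjusted p = 0.0715), was not called.

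UBE2L3, the E2 that feeds HECT and RBR ligases such as Parkin, had levels of 1.66 and 1.66 in miR-NC input, 0.62 and 1.46 in miR-NC AGO2-RIP, 1.70 and 1.70 in miR-634 input and -0.21 and -0.14 in miR-634 AGO2-RIP. The inputs were level, the 2 miR-NC RIP arrays lay far apart, and the miR-634 RIP arrays were the lowest. Its change of enrichment was -1.25 (SE 0.34, adjusted p = 0.0149), between -1.67 and -0.83 when any array was left out, the latter without miR-NC RIP array 2, and -0.15 with no call under spike-in scaling. UBE2L6, its relative that conjugates ISG15, rose by 1.08 (SE 0.11, adjusted p = 0.000216), with RIP levels of 0.07 and 0.05 in miR-NC cells and 0.77 and 0.95 in miR-634 cells.

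UBE2E1, a further broad E2, was among the dimmest members, at -4.38 and -4.01 in miR-NC input, -4.60 and -4.31 in miR-NC AGO2-RIP, -4.001 and -4.09 in miR-634 input and -5.73 and -5.03 in miR-634 AGO2-RIP. The miR-634 RIP arrays were the lowest and the other groups lay close together. Its change of enrichment, -1.07 (SE 0.34, adjusted p = 0.0292), lost its call without either miR-634 input array, without miR-NC input array 1 and without miR-NC RIP array 2, and ranged from -1.42 to -0.72, each without 1 of the miR-634 RIP arrays. With normexp correction and quantile normalization it was -0.43 and not called, and with spike-in scaling 0.03. UBE2E2 was at -0.48 (SE 0.23) and not called. For UBE2E3 the miR-NC RIP arrays read -0.53 and -2.66, and its change of -1.16 (SE 0.85) was not called, while another probe gave 0.00 with the miR-NC RIP arrays at -2.75 and -2.85.

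UBE2H, which works with the CTLH ligase, had some of the lowest enrichment in either kind of cell. Its level was -0.31 and -0.47 in miR-NC input, -1.52 and -1.65 in miR-NC AGO2-RIP, -0.08 and -0.23 in miR-634 input and -1.76 and -2.08 in miR-634 AGO2-RIP. The RIP arrays lay well below the inputs in either kind of cell. Enrichment went from -1.19 to -1.76, and the change of -0.57 (SE 0.17, adjusted p = 0.022) lost its call without miR-NC input array 2, miR-NC RIP array 1 or miR-634 input array 1. UBE2K, which makes the chains that mark proteins for the proteasome, fell as well (-0.52, SE 0.06, adjusted p = 0.000445), as did UBE2W, which places ubiquitin on protein amino termini (-0.51, SE 0.09, adjusted p = 0.00301), and these turned to 0.53, 0.58 and 0.60 under spike-in scaling.

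**Figure D3:**
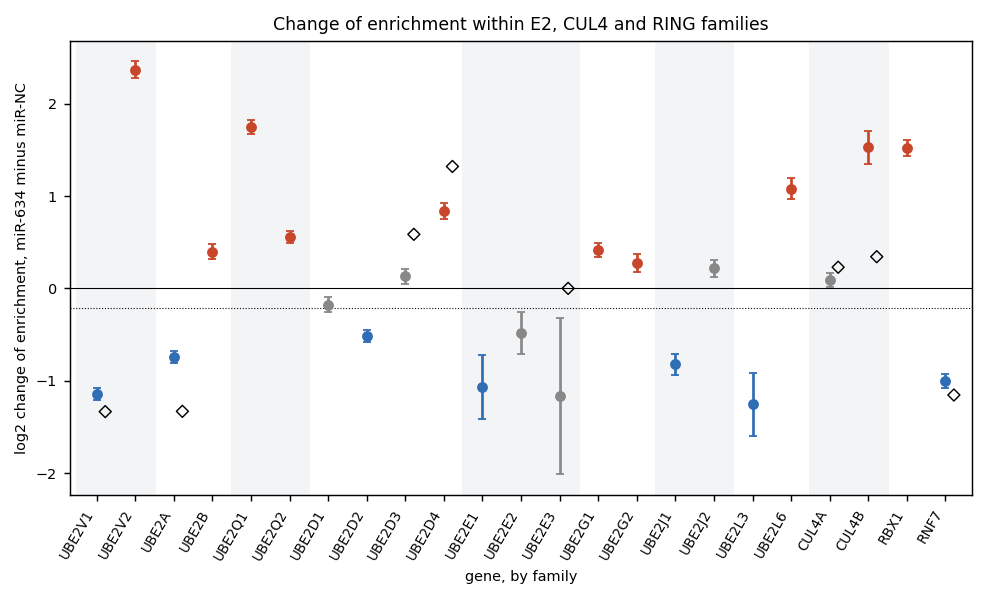
Log2 change of enrichment, miR-634 minus miR-NC (vertical axis), of related members grouped by family, with bars of 1 SE from limma (2 arrays in each of 4 groups). Red and blue points are called rises and falls, gray points were not called, open diamonds are further probes of the same gene, and the dotted line is the median of all measured genes. Relatives lie on opposite sides of 0 for UBE2V1 and UBE2V2, UBE2A and UBE2B, UBE2L3 and UBE2L6, and RBX1 and RNF7; under spike-in scaling UBE2A and RNF7 turn to values above 0 and UBE2V1 and UBE2L3 stay just below it.

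Of the E2 enzymes of the endoplasmic reticulum, UBE2J1 fell (-0.82, SE 0.11, adjusted p = 0.000703), with 0.28 under spike-in scaling. UBE2G2 was higher at 0.27 (SE 0.10, adjusted p = 0.0419), a call that was lost under several alternatives, among them the fits without any 1 array other than miR-NC RIP array 2 and miR-634 RIP array 2. UBE2J2 stood at 0.22 (SE 0.09) and was not called. Of the E2 enzymes that extend chains on cullin substrates, UBE2G1 rose by 0.42 (SE 0.08, adjusted p = 0.0035) and UBE2R2 was at 0.20 (SE 0.08), not called. The mitotic E2 enzymes UBE2C and UBE2S, which serve the anaphase-promoting complex, and UBE2T, which acts in Fanconi anemia repair, were not called either, with changes of -0.08 (SE 0.08), -0.19 (SE 0.18) and 0.11 (SE 0.06). Their enrichment nevertheless differed within cells: RIP was above input for UBE2C (0.66 and 0.57, in miR-NC and miR-634 cells) and below it for UBE2S and UBE2T in either kind of cell. UBE2O, a large enzyme that acts as E2 and E3 together, and UBE2Z, the E2 partner of UBA6, were at 0.05 (SE 0.08) and 0.34 (SE 0.20) and not called.

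Among the cullin scaffolds, CUL1, CUL3, CUL4B and CUL5 changed and CUL2, CUL4A and CUL9 did not pass the test. CUL1, the scaffold of the SKP1 and F-box ligases, gave the largest fall of all members. Its level was -2.07 and -1.94 in miR-NC input, -1.20 and -1.25 in miR-NC AGO2-RIP, -1.72 and -1.79 in miR-634 input and -3.02 and -2.59 in miR-634 AGO2-RIP. RIP lay above input in miR-NC cells and below input in miR-634 cells, with no overlap. Enrichment turned from 0.78 to -1.06, a change of -1.84 (SE 0.19, adjusted p = 0.000201), or 3.58-fold lower. It was the only fall still called under spike-in scaling, at -0.74, and it ranged from -2.05 to -1.63 when any array was left out.

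CUL5, the scaffold for Elongin and SOCS box receptors, moved in the opposite direction. Its level was -2.25 and -2.24 in miR-NC input, -2.94 and -2.87 in miR-NC AGO2-RIP, -3.26 and -3.37 in miR-634 input and -2.48 and -2.67 in miR-634 AGO2-RIP. Input was the highest group in miR-NC cells and the lowest in miR-634 cells. Its input change, -1.07 (SE 0.08, adjusted p = 0.00062), was the largest of the members, and the only input fall over 2-fold (1.92% of members, against 0.347% of all measured genes). Enrichment turned from -0.66 to 0.74, a change of 1.40 (SE 0.11, adjusted p = 5.37e-05), and the RIP level itself rose by 0.33 (SE 0.08, adjusted p = 0.00662).

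CUL4B, which holds its substrates through DDB1, had levels of -2.25 and -2.24 in miR-NC input, -3.78 and -4.06 in miR-NC AGO2-RIP, -2.48 and -2.81 in miR-634 input and -2.81 and -2.78 in miR-634 AGO2-RIP. The miR-NC RIP arrays were clearly the lowest, and the miR-634 RIP arrays overlapped the miR-634 inputs. Its enrichment in miR-NC cells, -1.68, was the lowest of all members, and that with miR-634, -0.15, was not called different from 0. The change was 1.53 (SE 0.18, adjusted p = 0.000367), whereas a dimmer probe of the same accession changed by 0.34. CUL4A, its near relative, was at 0.09 (SE 0.08), and its other probe at 0.23. DDB1, the adaptor of both, was at -0.17 (SE 0.07). Neither was called.

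CUL3, the scaffold for BTB receptors such as KEAP1, had levels of 0.58 and 0.51 in miR-NC input, -0.38 and -0.52 in miR-NC AGO2-RIP, 0.56 and 0.49 in miR-634 input and -1.15 and -1.29 in miR-634 AGO2-RIP. Inputs were level between cells and the RIP arrays were lower, most so with miR-634. Enrichment was -1.001 and -1.74, a change of -0.74 (SE 0.10, adjusted p = 0.000827), with 0.36 under spike-in scaling. CUL2, which serves the VHL receptor, was at 0.01 (SE 0.16), and CUL9, a scaffold that binds p53, at -0.27 (SE 0.10), with no call.

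The RING subunits went opposite ways. RBX1, which CUL1 to CUL4 use, had levels of 2.11 and 2.21 in miR-NC input, 1.27 and 1.25 in miR-NC AGO2-RIP, 1.91 and 1.999 in miR-634 input and 2.61 and 2.53 in miR-634 AGO2-RIP. RIP lay below input in miR-NC cells and above it in miR-634 cells, and no group overlapped another. Its enrichment turned from -0.90 to 0.62, a change of 1.52 (SE 0.09, adjusted p = 1.39e-05), and most of this lay in the RIP level, which changed by 1.31 (SE 0.06, adjusted p = 3.6e-06), whereas the input change of -0.21 (SE 0.06, adjusted p = 0.0526) was not called. RNF7, the RING subunit that CUL5 uses, had levels of 2.11 and 2.08 in miR-NC input, 1.92 and 1.82 in miR-NC AGO2-RIP, 1.97 and 2.001 in miR-634 input and 0.78 and 0.72 in miR-634 AGO2-RIP. Only the miR-634 RIP arrays stood apart, below all others. Its change of enrichment was -1.003 (SE 0.07, adjusted p = 4.7e-05), with -1.15 by another probe and 0.10 under spike-in scaling.

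SKP1, the adaptor between CUL1 and F-box receptors, was among the brighter members, at 2.82 and 2.84 in miR-NC input, 2.997 and 2.95 in miR-NC AGO2-RIP, 2.78 and 2.80 in miR-634 input and 1.997 and 1.80 in miR-634 AGO2-RIP. Again only the miR-634 RIP arrays stood apart, below the rest. The change of enrichment was -1.04 (SE 0.10, adjusted p = 0.000137), with -1.09 by another probe and 0.06 under spike-in scaling. Of the 2 F-box receptors, SKP2, which directs turnover of the cell cycle inhibitor p27, had levels of -1.69 and -1.57 in miR-NC input, 1.06 and 1.11 in miR-NC AGO2-RIP, -1.66 and -1.74 in miR-634 input and 0.27 and 0.27 in miR-634 AGO2-RIP. RIP lay far above input in either kind of cell, and less far with miR-634. In miR-NC cells SKP2 had the highest enrichment of the members, 2.71, and with miR-634 it had 1.97, a change of -0.74 (SE 0.08, adjusted p = 0.000289), with 0.36 under spike-in scaling.

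FBXW7, the receptor for cyclin E, MYC and NOTCH, had levels of -2.23 and -2.26 in miR-NC input, -0.56 and -0.68 in miR-NC AGO2-RIP, -3.09 and -2.998 in miR-634 input and -0.35 and -0.54 in miR-634 AGO2-RIP. RIP was above input in either kind of cell, the miR-634 inputs were the lowest group, and the RIP groups lay close together. Its enrichment, 1.63 in miR-NC cells, was the highest of the members in miR-634 cells at 2.60. The change of 0.97 (SE 0.11, adjusted p = 0.000362) came with an input change of -0.80 (SE 0.08, adjusted p = 0.0017), while the RIP change of 0.17 (SE 0.08, adjusted p = 0.0917) was not called.

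The E1 enzymes and the pathways of ubiquitin-like proteins gave the remaining values. UBA2, the catalytic subunit of the SUMO E1, had levels of -0.57 and -0.43 in miR-NC input, -1.46 and -1.35 in miR-NC AGO2-RIP, -0.43 and -0.38 in miR-634 input and -0.09 and -0.20 in miR-634 AGO2-RIP. RIP was lower than input in miR-NC cells and higher in miR-634 cells. Its change of enrichment was 1.16 (SE 0.10, adjusted p = 8.76e-05), with 1.21 by another probe, and lay in the RIP level (1.26, SE 0.07, adjusted p = 8.16e-06), with an input change of 0.10 (SE 0.07, adjusted p = 0.372). UBA1, the main ubiquitin E1, was at 0.05 (SE 0.07) and not called.

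For NEDD8, neither the modifier (-0.06, SE 0.10) nor UBA3, the catalytic subunit of its E1 (-0.35, SE 0.33), was called. Levels of UBA3 were -3.35 and -3.22 in miR-NC input, -4.73 and -3.96 in miR-NC AGO2-RIP, -3.17 and -3.36 in miR-634 input and -4.60 and -4.76 in miR-634 AGO2-RIP. The 2 miR-NC RIP arrays differed by more than the RIP groups did, and RIP lay below input in either kind of cell (-1.06 and -1.42). Both E2 enzymes for NEDD8 fell: UBE2M, which serves RBX1 (-0.47, SE 0.08, adjusted p = 0.00216), and UBE2F, which serves RNF7 (-0.29, SE 0.08, adjusted p = 0.0198). These stood at 0.64 and 0.81 under spike-in scaling, and UBE2F also lost its call with the percentile over all probes (-0.17) and without miR-NC input array 1 or either miR-634 input array. UBE2MP1, a pseudogene of UBE2M whose probe may bind that transcript too, was at -0.59 (SE 0.11, adjusted p = 0.00277).

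Input RNA changed for few members. It fell for 8 (15.4%, against 12.1% of all measured genes) and rose for 1 (1.92%, against 11.6%), and 43 did not pass the test, with a median of -0.03 for the members and -0.01 for all genes. Beside CUL5, UBE2Q1, UBE2V2 and FBXW7, input fell for UBE2D4 (-0.41, SE 0.06, adjusted p = 0.00682), UBE2Q2, UBE2L6 (-0.28, SE 0.08, adjusted p = 0.0482) and UBE2B. The calls of UBE2B and UBE2V1 were lost without any 1 of the 4 input arrays, that of UBE2L6 without any 1 array other than the miR-634 RIP arrays, and that of UBE2D4 without miR-634 input array 1. All 8 were also members with a rise of enrichment, but enrichment is computed from the same input arrays, so a lower input alone raises it. The RIP level, which does not use these arrays, rose for 14 members (26.9%, against 30.9%) and fell for 25 (48.1%, against 46.5%), over 2-fold for 4 (7.69%, against 11.4%) and 4 (7.69%, against 7.75%), with a median of -0.17 for the members and -0.18 for all genes. Of the 13 members with a rise of enrichment, 11 had a called rise of RIP level and 8 a called fall of input, with medians of 0.43 and -0.34. Of the 20 members with a fall, all 20 had a called fall of RIP level and 1 a called rise of input, with medians of -0.72 and 0.02. The change of enrichment shares its arrays with both, so these values stand side by side only. The matching counts were not taken over all measured genes, so these are not shown to be particular to the members. With spike-in scaling the RIP level was called lower for 1 member and higher for 33, against 3.26% and 66.4% of all measured genes.

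**Figure D4:**
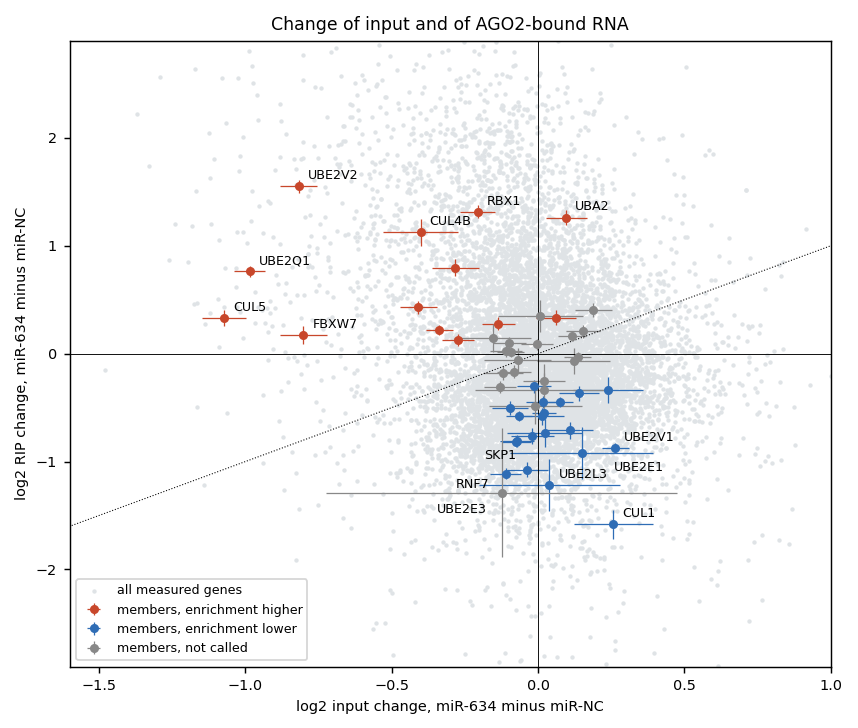
Log2 input change (horizontal axis) against log2 RIP change (vertical axis), miR-634 minus miR-NC, of the 52 members with bars of 1 SE from limma, over all measured genes (light gray; 75 lie outside the axes). Above the dotted line enrichment is higher in miR-634 cells. Called rises (red) lie above 0 on the RIP axis and 11 of 13 lie left of 0 on the input axis, among them CUL5 with an input change of -1.07, and called falls (blue) lie below 0 on the RIP axis, as for CUL1 (-1.58), with input changes from -0.11 to 0.26; with spike-in scaling 17 of the 20 falls turn to values above 0.

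Within each kind of cell, RIP against input was lower for more members than it was higher. In miR-NC cells it was higher for 10 members (19.2%, against 33.5% of all genes) and lower for 30 (57.7%, against 45.3%), with a median of -0.25 for the members and -0.12 for all genes. In miR-634 cells it was higher for 15 (28.8%, against 36.1%) and lower for 28 (53.8%, against 48.3%), with medians of -0.38 and -0.17. With spike-in scaling 0 and 4 members were higher and 51 and 47 lower. Of all genes, 0.52% and 6.08% were then higher and 98.1% and 84.2% lower. RIP was called lower than input in both kinds of cell for 21 members (40.4%, against 32.9% of all genes) and higher in both for 6 (11.5%, against 21.3%), among them SKP2, FBXW7, UBE2Q1 and UBE2C. It was called on opposite sides for 8: CUL1 and UBE2A went from higher to lower (3.85%, against 6.08%), and CUL5, RBX1, UBA2, UBE2B, UBE2D4 and UBE2V2 from lower to higher (11.5%, against 8.47%).

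Of 13 members with more than 1 probe above background, the probes differed by at most 0.5 in the change of enrichment for 10. The exceptions were CUL4B, UBE2A and UBE2E3, as given above. The 7 members not measured were CUL7, UBA6, UBE2DNL, UBE2QL1, UBE2U, UBE2E1-AS1 and UBE2Q1-AS1, and the last 4 were above background on 0 arrays. UBA6, the E1 that charges UBE2Z, was above background on the 4 input arrays only. Its mean input level over 2 arrays was -5.11 with miR-NC and -4.99 with miR-634, at least 1.09-fold and 2.33-fold above RIP, where the bound is the higher of the dimmest signal well above background on a RIP array and the signal of the probe itself. CUL7 and UBE2DNL were above background on 5 and 6 arrays.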

How the data were processed

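The authors deposited, for each of 8 arrays, the spot intensity from Agilent Feature Extraction (version 9.1 in the submitters' processing notes, 12.0.1.1 in the file headers), with local background subtracted and no normalization between arrays. Quality flags for each spot were deposited too. The authors also deposited a table of log2 values. Its columns had r = 1 with the log2 intensity minus the 75th percentile over all probes, centered on the median of each probe over the arrays, so that scale, centering and direction are known. Their medians were -0.44, -0.38, 0.88, 0.86, -0.42, -0.39, 0.36 and 0.32 for the miR-NC cells (input, then RIP) and then the miR-634 cells in the same order, and this table served as an alternative only.

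Control spots and outliers were dropped, spot intensities log2-transformed and the log2 values of replicate spots of a probe averaged. No saturation was flagged. The 75th percentile of each array, over the 16808 of 58201 probes (28.9%) flagged as well above background on every array, was subtracted. RefSeq accessions were held by 33080 probes, and RefSeq's table for GRCh38.p14 gave a symbol for 31104 of these by unversioned accession; the files hold no gene names and were designed on another build, so no gene coordinates are given. Group means of all measured genes were fitted in limma 3.58.1 (R 4.3.3, lmFit and eBayes), and p-values were adjusted over all of them by Benjamini-Hochberg. Steps were tested on simulated data. All arrays lay on 1 slide with 1 scan, inputs in one row and RIPs in the other, so that position and RIP cannot be told apart. The number of arrays limits the precision. Members shown array by array were those with the 5 largest called rises and falls of enrichment, the 3 largest of input and of RIP, and the 3 highest and lowest RIP/input in each kind of cell, with near relatives added. The values of 1 member, which is included in all counts, are not reported here. Members and lists were chosen with earlier results of these data known. Alternatives changed the background correction, scaling, filter, probe choice, variance model, test, replicate block and array set. Tables used Python 3.11.15 and pandas 2.3.3, and plots matplotlib 3.10.9.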

Additional observations from a re-analysis of the deposited data

Results flagged for a closer look

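For 8 members, RIP lay on opposite sides of input in the 2 kinds of cell, called on either side. The difference between the sides is the change of enrichment in the same limma fit over all genes. Members picked by opposite called sides have a large difference by construction, so its p-values are no separate support. CUL1 (-1.84, SE 0.19, adjusted p = 0.000201) and UBE2A (-0.74, SE 0.07, adjusted p = 0.000133) went from above to below input, as did 6.08% of all measured genes. CUL5 (1.40, SE 0.11, adjusted p = 5.37e-05), RBX1 (1.52, SE 0.09, adjusted p = 1.39e-05), UBA2 (1.16, SE 0.10, adjusted p = 8.76e-05), UBE2B (0.40, SE 0.08, adjusted p = 0.00336), UBE2D4 (0.84, SE 0.09, adjusted p = 0.000238) and UBE2V2 (2.37, SE 0.09, adjusted p = 2.87e-06) went from below to above, as did 8.47%. The sides depend on where 0 is set. With spike-in scaling, which moves all changes of enrichment up by the same amount, the change was -0.74 for CUL1 and 0.36 for UBE2A. The change was above 0 for the other 6, but RIP was called above input for 0 members in miR-NC cells and for 4 in miR-634 cells. Of all measured genes, 0.52% and 6.08% were called above input, respectively.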

How the results depend on the processing

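With arrays scaled to spike-in controls, 34 members rose and 1 fell in enrichment, 33 and 1 in RIP level, 0 were higher in input, and RIP/input was higher for 0 and lower for 51 in miR-NC cells and for 4 and 47 in miR-634 cells. Among the changes of enrichment that turned to above 0 there were 0.36 for CUL3, 0.83 for CUL9, 0.94 for DDB1, 1.04 for NEDD8, 0.10 for RNF7, 0.0646 for SKP1, 0.36 for SKP2, 0.75 for UBA3, 0.36 for UBE2A, 1.02 for UBE2C, 0.93 for UBE2D1, 0.59 for UBE2D2, 0.0342 for UBE2E1, 0.62 for UBE2E2, 0.81 for UBE2F, 0.53 for UBE2H, 0.28 for UBE2J1, 0.58 for UBE2K, 0.64 for UBE2M, 0.51 for UBE2MP1, 0.35 for UBE2N, 0.69 for UBE2NL, 0.91 for UBE2S and 0.60 for UBE2W. Centered on the median gene, 22 rose and 16 fell in enrichment, and 22 and 18 in RIP level. With the authors' values 14 rose and 18 fell in enrichment, and 20 and 17 in RIP level. Over all genes the shares higher and lower in enrichment were 28.1% and 43.2%, 67.0% and 1.61% with spike-in scaling, and 35.1% and 30.6% when centered. In RIP level they were 66.4% and 3.26% with spike-in scaling, and 38.8% and 35.5% when centered. With spike-in scaling, input was higher for 0.228% of all genes. RIP/input was then higher for 0.52% and lower for 98.1% in miR-NC cells, and for 6.08% and 84.2% in miR-634 cells. With the authors' values the shares were 30.0% and 33.4% in enrichment and 36.9% and 34.0% in RIP level.

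Each percentage in the next 4 sentences is the share of all genes in the same setting. Members higher in input (1, 11.6%) numbered 3 with normexp correction (11.6%) or an intensity trend (12.7%). They numbered 0 without the filter on dim probes (1.64%), and 7 by the methods' t-test (16.9%), or 0 after Benjamini-Hochberg (1.45%). Members lower in input (8, 12.1%) numbered 5 without the filter (2.54%) and 1 by that t-test after Benjamini-Hochberg (2.24%). Members lower in RIP level (25, 46.5%) numbered 16 by the t-test (35.3%) and 13 after Benjamini-Hochberg (28.2%). With each array left out in turn, rises of enrichment numbered 12 to 15 and falls 17 to 22, input rises 0 to 2 and falls 6 to 8, RIP rises 12 to 15 and falls 22 to 24, and RIP/input 10 to 12 higher and 26 to 29 lower in miR-NC cells and 12 to 15 and 26 to 28 in miR-634 cells. With the replicate number as a block, 12 rose and 20 fell in enrichment, 1 and 7 in input, and 14 and 24 in RIP level. RIP/input was then higher for 11 and lower for 29 in miR-NC cells and for 14 and 27 in miR-634 cells. The shares of all genes in that fit were 28.0% and 43.1% in enrichment, 9.88% and 10.7% in input, and 30.8% and 46.4% in RIP level. For RIP/input they were 33.4% and 45.1% in miR-NC cells, and 36.1% and 48.2% in miR-634 cells. Deviations of arrays with the same number correlated at -0.04 to 0.08 over genes, so the numbers are not shown to pair the arrays. Of 33 called changes of enrichment, 13 kept sign and call under every alternative fitted in limma and 27 under all of these but the spike-in scaling, and of 9 input changes 4 (CUL5, FBXW7, UBE2Q1 and UBE2V2) and 5. Spike-in scaling moves all changes of enrichment up, so a rise can only grow under it, and CUL1 was the only fall still called. The kept counts thus do not weigh rises and falls evenly, and they were not taken over all measured genes. The methods' t-test was run for the counts only, not followed for single members. A value called in neither setting was not counted as changed, except for the turned signs above. The cause of these moves was not tested.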

Other observations

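Genes that work beside these enzymes were read from lists drawn up with earlier results of these data known. Over all measured genes, against which each count is to be read, enrichment rose for 28.1% and fell for 43.2%. Of 14 measured genes of neddylation and the COP9 signalosome, which removes NEDD8 from cullins, enrichment rose for 1, fell for 8 and was not called for 5, with a median change of -0.28 beside -0.22 for all genes. The rise was that of the signalosome subunit COPS7A (1.35, SE 0.12, limma adjusted p = 0.000103), and the largest falls were those of the subunits GPS1 (-1.45), COPS4 (-0.93) and COPS3 (-0.70). GPS1 was also higher in input, by 0.29. Of 15 genes of the anaphase-promoting complex, a cullin-like ligase of mitosis, 5 rose and 6 fell, with a median of -0.08. Its RING subunit ANAPC11 rose by 2.29 and CDC26 by 1.91, with input changes of -0.32 and -0.28, and ANAPC4 by 1.34, whereas ANAPC13 changed by -1.02.

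Of 45 F-box genes, which join CUL1 through SKP1, 10 rose and 15 fell (median -0.14). FBXO2, a receptor for glycoproteins, rose by 2.58 (SE 0.09, limma adjusted p = 2.14e-06), FBXO8 by 1.54 and FBXO33 by 1.35, while FBXL8, FBXO24 and FBXL2 stood at -1.25, -1.23 and -1.19. Of 29 BTB genes, which join CUL3, 11 rose and 9 fell (median 0.08), from 1.41 for KLHL8 to -1.68 for KBTBD7. Of 18 DCAF genes of CUL4, 5 rose and 6 fell (median -0.03), with DET1 highest at 1.47. Of 33 Elongin BC genes of CUL2 and CUL5, 9 rose and 13 fell (median -0.19), with RAB40B at 2.78, CISH at 1.75 and ASB1 at 1.60, and FEM1B at -1.66. Input was called lower for KLHL8 (-0.86), RAB40B (-0.67), CISH (-0.66) and ASB1 (-0.39), which raises their enrichment. The input change of the other genes named in this paragraph was not called.

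Of 10 genes for ubiquitin and ubiquitin-like precursors, 3 rose and 4 fell. Of 10 further E1 and E2 genes whose names do not begin with UBE2, 5 rose and 4 fell. UFC1, the E2 for the modifier UFM1, had levels of -0.33 and -0.34 in miR-NC input, -0.30 and -0.40 in miR-NC AGO2-RIP, -0.86 and -0.84 in miR-634 input and 3.91 and 3.88 in miR-634 AGO2-RIP. Its enrichment thus changed by 4.77 (SE 0.07, limma adjusted p = 5.27e-07), more than that of any member above. ATG7, the E1 of autophagy, rose by 1.88, and CDC34, the E2 of CUL1 ligases that is related to UBE2R2, by 1.70. Input was called lower for UFC1 (-0.52) and CDC34 (-0.62), which raises their enrichment. The largest of the 4 falls were those of UEVLD (-0.62), TSG101 (-0.56) and ATG3 (-0.45). Under spike-in scaling the falls in these lists are smaller or turn, as for the members, since that scaling moves the changes of all genes up by the same amount.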
